A study of Mus musculus with 6 samples.

Results

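The mitochondrial respiratory chain and ATP synthase were followed through 41 nuclear genes that encode their subunits in mouse embryonic fibroblasts, 3 samples labelled Rap1 knock-out and 3 labelled wild-type. The 41 genes were a fixed list of standard subunits: 22 of complex I, 7 of complex III with cytochrome c, 7 of complex IV and 5 of ATP synthase. All 41 had a probe, each gene was read by its brightest probe, and they made up 41 of the 19652 features tested. Rap1, encoded by Terf2ip, is a telomere protein of the shelterin complex that joins it through its partner Terf2. The study asked how loss of Rap1 affects transcription near telomeres and elsewhere. The series' design text describes an allele in which exon 3 of Terf2ip lies between loxP sites, so that the recombinase Cre removes it. Per the labels, the fibroblasts of both groups were infected with the SV40 large T antigen, which immortalises them, and with Cre, and were grown in DMEM with puromycin. The labels do not give the Terf2ip allele of the wild-type fibroblasts. Total RNA of each sample, carrying the dye Cy3, was read on 1 Agilent array. Whether the 3 samples of a group are separate embryos or separate cultures is not stated. The p-values therefore cover the spread among these samples, which may be technical, and 3 arrays a group limit the precision.

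Oxidative phosphorylation couples the oxidation of nutrients to ATP synthesis. Complex I takes electrons from NADH and complex II from succinate, and both pass them through ubiquinone to complex III. Cytochrome c carries them on to complex IV, which reduces oxygen to water, and ATP synthase uses the proton gradient built up on the way. Most subunits are encoded in the nucleus and imported, the others by mitochondrial DNA, and only nuclear genes were followed here. The transcription factors NRF1, GABP (an ETS factor), YY1 and the estrogen-related receptors (ERR) are known regulators of such nuclear genes.

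The promoters of the genes were searched for the motifs of those factors, since the genes are known to share regulators. RefSeq promoter sequences of assembly GRCm38.p6, from 250 bases before to 50 bases after the gene start, were at hand for 31 of the 41 genes. The NRF1 motif was GCGCA followed by any base and GCGC, and all motifs were read on both strands. It stood in 5 of the 31 (16.1%), against 11.0% of the 9493 tested genes with a promoter and 5.19% of all 27025 promoters. The YY1 motif ATGGCGG stood in 7 of the 31 (22.6%), against 8.99% of tested genes and 4.69% of all promoters. The ETS motif CCGGAAG stood in 5 (16.1%), against 19.1% of tested genes and 9.93% of all promoters. The ERR motif AAGGTCA stood in 2 (6.45%), against 3.89% of tested genes and 5.38% of all promoters. No match of one motif overlapped a match of another in these 31 promoters, and a match describes the letters of the window only. The windows below, with the motif in capitals and each read 5′ to 3′ on the gene's strand, belong to genes whose values are given in full further on: NRF1 in Uqcrc1 (chr9:108936668-108936697, plus strand) and Ndufa8 (chr2:36049349-36049378, minus strand), the ETS motif in Ndufb7 (chr8:83566727-83566755, plus strand) and Ndufs3 (chr2:90904731-90904759, minus strand), and YY1 in Ndufa9 (chr6:126849095-126849123, minus strand). In Ndufa8 the motif lies on the opposite strand.
Uqcrc1: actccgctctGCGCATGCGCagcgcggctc
Ndufa8: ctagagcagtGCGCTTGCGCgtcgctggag
Ndufb7: gcctagatgacCCGGAAGacactgaaggg
Ndufs3: cccgcgtccgcCCGGAAGaagagtcactg
Ndufa9: tgtgggagaagATGGCGGccgccgtccgc

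Values are given as log2 signal, the log2 of the array's processed signal minus that array's 75th percentile, always in the order of arrays 1, 2 and 3. Since probes differ in brightness, the log2 signal of one gene is not set against that of another. Terf2ip read −7.91, −9.08 and −8.11 on the Rap1 knockout arrays, where its probe was not well above background, against −1.75, −1.65 and −1.82 on the wild-type arrays. It was at least 37.8-fold lower in knockout cells (limma adjusted p = 0.0079), where the adjustment runs over all features. That call was lost with the slide or the replicate number as a block (limma adjusted p = 0.0625 and 0.177), with the mean of wild-type arrays 2 and 3 as 1 sample (0.065), and without knockout array 1 or 3 or wild-type array 2 or 3 (0.056 to 0.0746). Where the probe lies relative to the deleted exon was not checked. Between 61.6% and 67.0% of 41174 probes per array were well above background. Wild-type arrays 2 and 3 were nearly alike: the SD of their log2 differences over probes was 0.25, against 0.83 to 1.25 for the other pairs of arrays. Knockout array 1 and wild-type array 1 shared a slide, and the other 4 arrays shared a second slide. All 12 fibroblast markers were well above background on every array, and their summed signal (in units of the array's 75th percentile) was 374 to 639 in knockout samples, against 679 to 734 in wild-type samples. On knockout array 1, which had the sum of 639, Dcn, Thy1 and Pdgfra read −5.47, −2.22 and −1.48. On the other arrays they read 2.19 to 5.79, 1.92 to 3.79 and 0.12 to 2.92. Pdgfrb was highest on knockout array 1, at 4.56. The median distance of the 12 markers from their own means was 0.03 on that array.

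All 41 subunit genes were well above background on all 6 arrays. No subunit gene passed the test between Rap1 knockout and wild-type cells (0 of 41, limma adjusted p between 0.486 and 0.856), and 2 features of the whole table (0.0102%), both lower in knockout cells, did. At an unadjusted p under 0.05 the count was 2 of 41, Ndufa9 and Ndufb9, both with knockout higher, against 10.3% of all features in either direction and 5.61% with knockout higher. The differences nevertheless lay mostly on one side. Knockout minus wild type was above 0 for 39 of 41 genes, against 55.4% of all features, with a median of 0.41 (1.33-fold), against 0.07 over all features. The 2 genes below 0 were Ndufs1 and Uqcrc2. The standard error of a single gene's difference was 0.21 to 0.35, and no gene reached a 2-fold difference, as 10.1% of all features did. In 10 of 41 genes each of the 3 knockout arrays was above each of the 3 wild-type arrays (separated groups), against 11.3% of all features, and 0 genes had all knockout arrays below, against 5.88%. The gap between the groups in those 10 was small, 0.0023 to 0.12. In RNA from whole cultures, fewer cells with a transcript and less RNA per cell cannot be told apart.

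The size of the median depended on the scaling. Against 0.41 with scaling by the 75th percentile, it was 0.22 after normexp background correction and quantile normalisation and 0.20 in the deposited value table. Scaling by the array median moved the median of all features by 0.11 and that of the subunit genes to 0.51. Both scalings subtract 1 value per array, so the distance of the subunit genes from all features, 0.34, could not differ between them. That distance was 0.18 after normexp and quantile normalisation and 0.16 in the deposited value table. Between 38 and 40 of the 41 genes stayed above 0 under these settings. Summed fibroblast marker signal did not overlap between the groups, as given above. Of the 12 markers 8 were below 0 and 4 above, with a median of −0.62. In 3 the groups were separated, all lower in knockout samples, against 5.88% of all features. Summed signal of the fat markers did not overlap either, at 0.70 to 3.31 in knockout samples and 3.79 to 9.43 in wild-type samples, nearly all of it from Fabp4. The 2 fat markers tested had opposite signs. Fabp4 differed by −2.55, and Plin1, well above background on 3 arrays only, by 1.16. Summed signal of the epithelial markers was 4.04 to 13.0 in knockout samples and 2.09 to 3.11 in wild-type samples, most of it from Krt18, which differed by 1.53. The other epithelial markers did not share that direction: 3 of the 5 tested were below 0, Krt8 at −1.74, and the median of the 5 was −0.07. The part of these cell markers in the subunit differences was not tested.

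**Figure D1:**
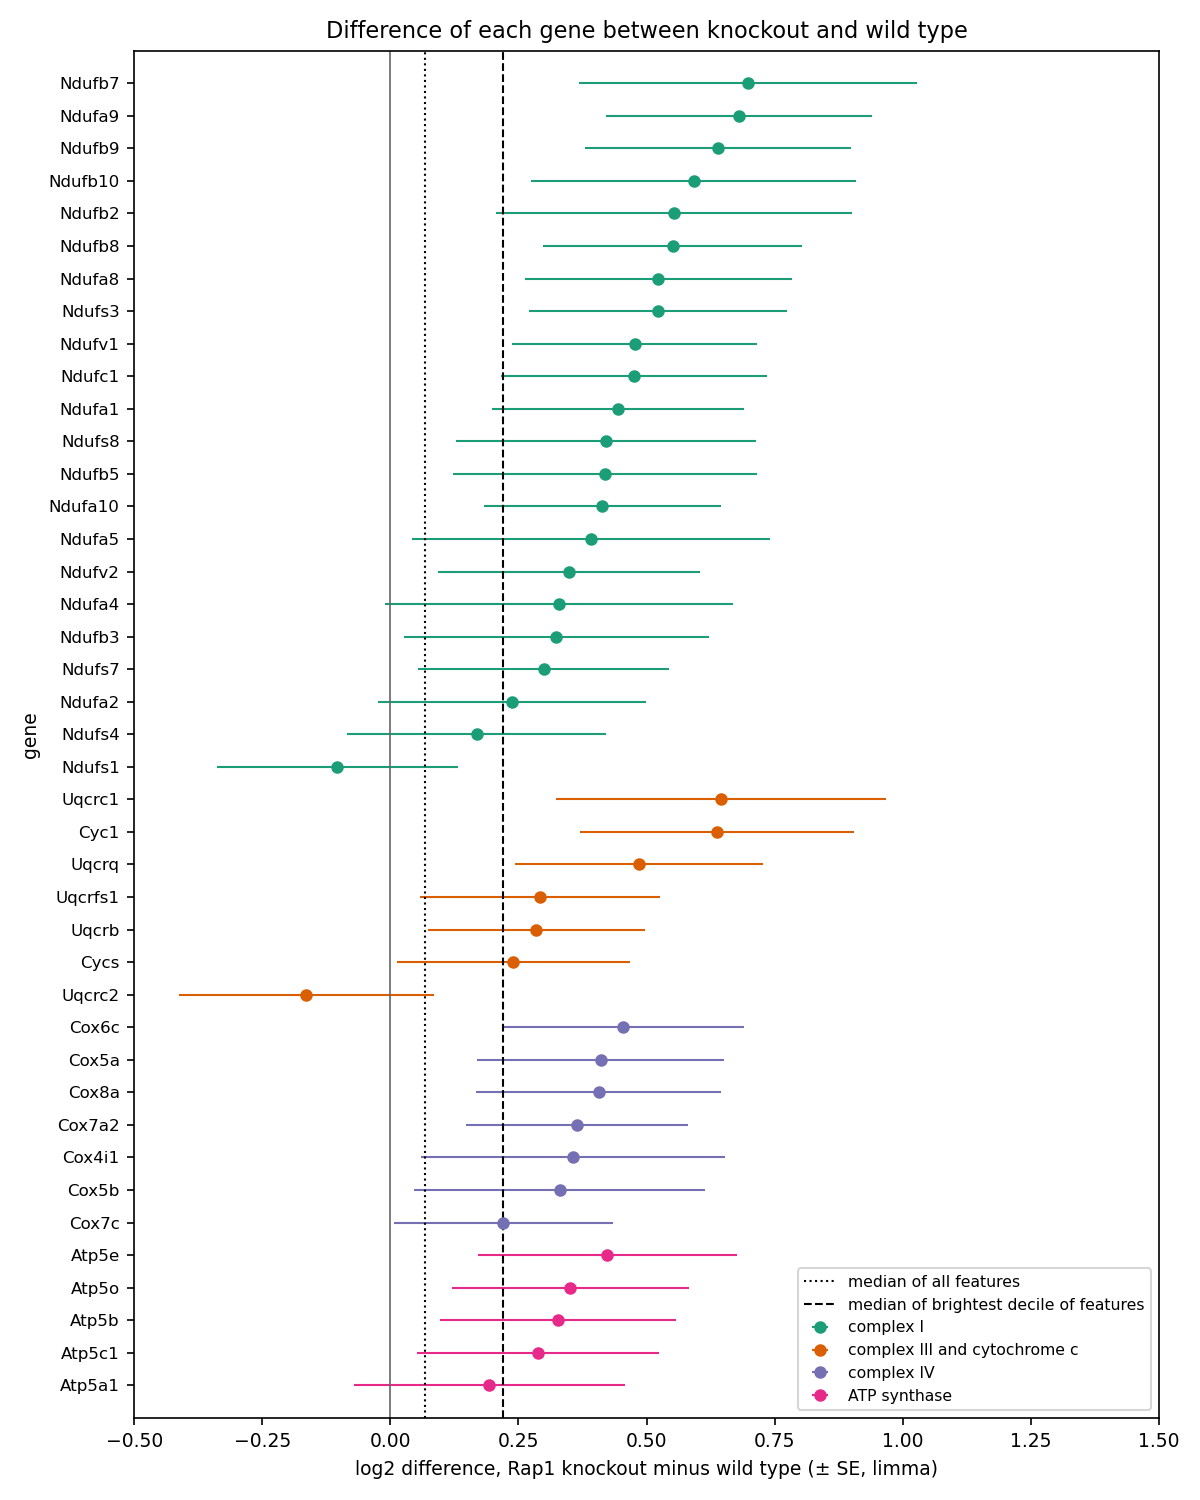
The log2 difference of each of the 41 genes, Rap1 knockout minus wild type, is plotted as a point with its standard error from limma (3 arrays a group), by complex and by size, beside the median of all features and that of the brightest decile of features. Of the 41 points, 39 lie right of 0, and Ndufs1 and Uqcrc2 lie left of it.

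Complex I, the entry point for NADH, gave a median difference of 0.43 over its 22 genes, 21 of them above 0. In 7 of the 22 the groups were separated with knockout higher, against 11.3% of all features. Its core subunits hold the flavin and the iron-sulfur clusters along which electrons travel, and 6 of them were measured, with a median of 0.38. Ndufv1, which carries the flavin and binds NADH, read 5.48, 5.26 and 4.96 in knockout cells, against 4.94, 4.66 and 4.67 in wild-type cells. The lowest knockout array stood just above the highest wild-type array, and the difference was 0.48 ± 0.24 (SE, limma). Ndufs3, a core subunit of the arm that hands electrons to ubiquinone, read 4.60, 4.19 and 4.09 in knockout cells, against 3.97, 3.52 and 3.82 in wild-type cells. Its groups were likewise separated, by 0.12, the widest gap of the 41 genes, with a difference of 0.52 ± 0.25. Ndufs1, the large iron-sulfur subunit near the NADH site, read 3.71, 3.56 and 3.92 in knockout cells, against 3.57, 4.01 and 3.93 in wild-type cells. The groups overlapped, and the difference was −0.10 ± 0.24, which was 0.14 on slide 1 alone and 0.0017 with array-median scaling. With 1 array left out it was −0.24 to −0.02, lowest without wild-type array 1 and nearest 0 without wild-type array 2. The other core genes, Ndufs7, Ndufs8 and Ndufv2, differed by 0.30 to 0.42 with overlapping groups.

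Accessory subunits surround that core and are needed for its assembly and stability. The 7 genes of the B series, which lie in the membrane arm, had the largest median among the complex I groups, 0.55, and the 7 of the A series had 0.41. Ndufb7, a small subunit on the side facing the intermembrane space, had the largest difference of all 41 genes, 0.70 ± 0.33 (1.62-fold). It read 6.22, 5.73 and 5.23 in knockout cells, against 5.41, 4.86 and 4.82 in wild-type cells. Knockout array 3 was below wild-type array 1, and without knockout array 1 the difference was 0.45. Ndufb9 read 6.97, 6.69 and 6.36 in knockout cells, against 6.30, 5.92 and 5.89 in wild-type cells, a difference of 0.64 ± 0.26. Ndufb8 read 6.46, 6.26 and 5.90 in knockout cells, against 5.89, 5.48 and 5.59 in wild-type cells, a difference of 0.55 ± 0.25. In Ndufb9 the groups were separated by 0.06 and in Ndufb8 by 0.0023, and both are subunits of the membrane arm. The other B-series genes, Ndufb2, Ndufb3, Ndufb5 and Ndufb10, differed by 0.32 to 0.59 and overlapped between the groups.

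In the A series, Ndufa9, which sits by the ubiquinone site at the junction of the arms, read 5.26, 5.04 and 4.68 in knockout cells, against 4.59, 4.14 and 4.21 in wild-type cells. The groups were separated, and the difference of 0.68 ± 0.26 had the smallest unadjusted p of the 41 genes, 0.0356, with a limma adjusted p of 0.486. Ndufa8, a subunit of the intermembrane-space side, read 4.49, 4.23 and 3.75 in knockout cells, against 3.65, 3.56 and 3.70 in wild-type cells (0.52 ± 0.26). Ndufa10, a membrane-arm subunit related to nucleoside kinases, read 3.37, 3.08 and 2.84 in knockout cells, against 2.62, 2.70 and 2.73 in wild-type cells (0.41 ± 0.23). Both had separated groups, and in both knockout array 3 was the lowest of its group and close to the wild-type range. In 4 further A-series genes (Ndufa1, Ndufa2, Ndufa4 and Ndufa5) the groups overlapped, with differences of 0.24 to 0.44. Ndufa4 was first assigned to complex I and is now placed with complex IV. Ndufs4, an accessory subunit of the NADH-oxidising module, and Ndufc1, a small membrane-arm subunit, differed by 0.17 and 0.48 with overlapping groups.

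**Figure D2:**
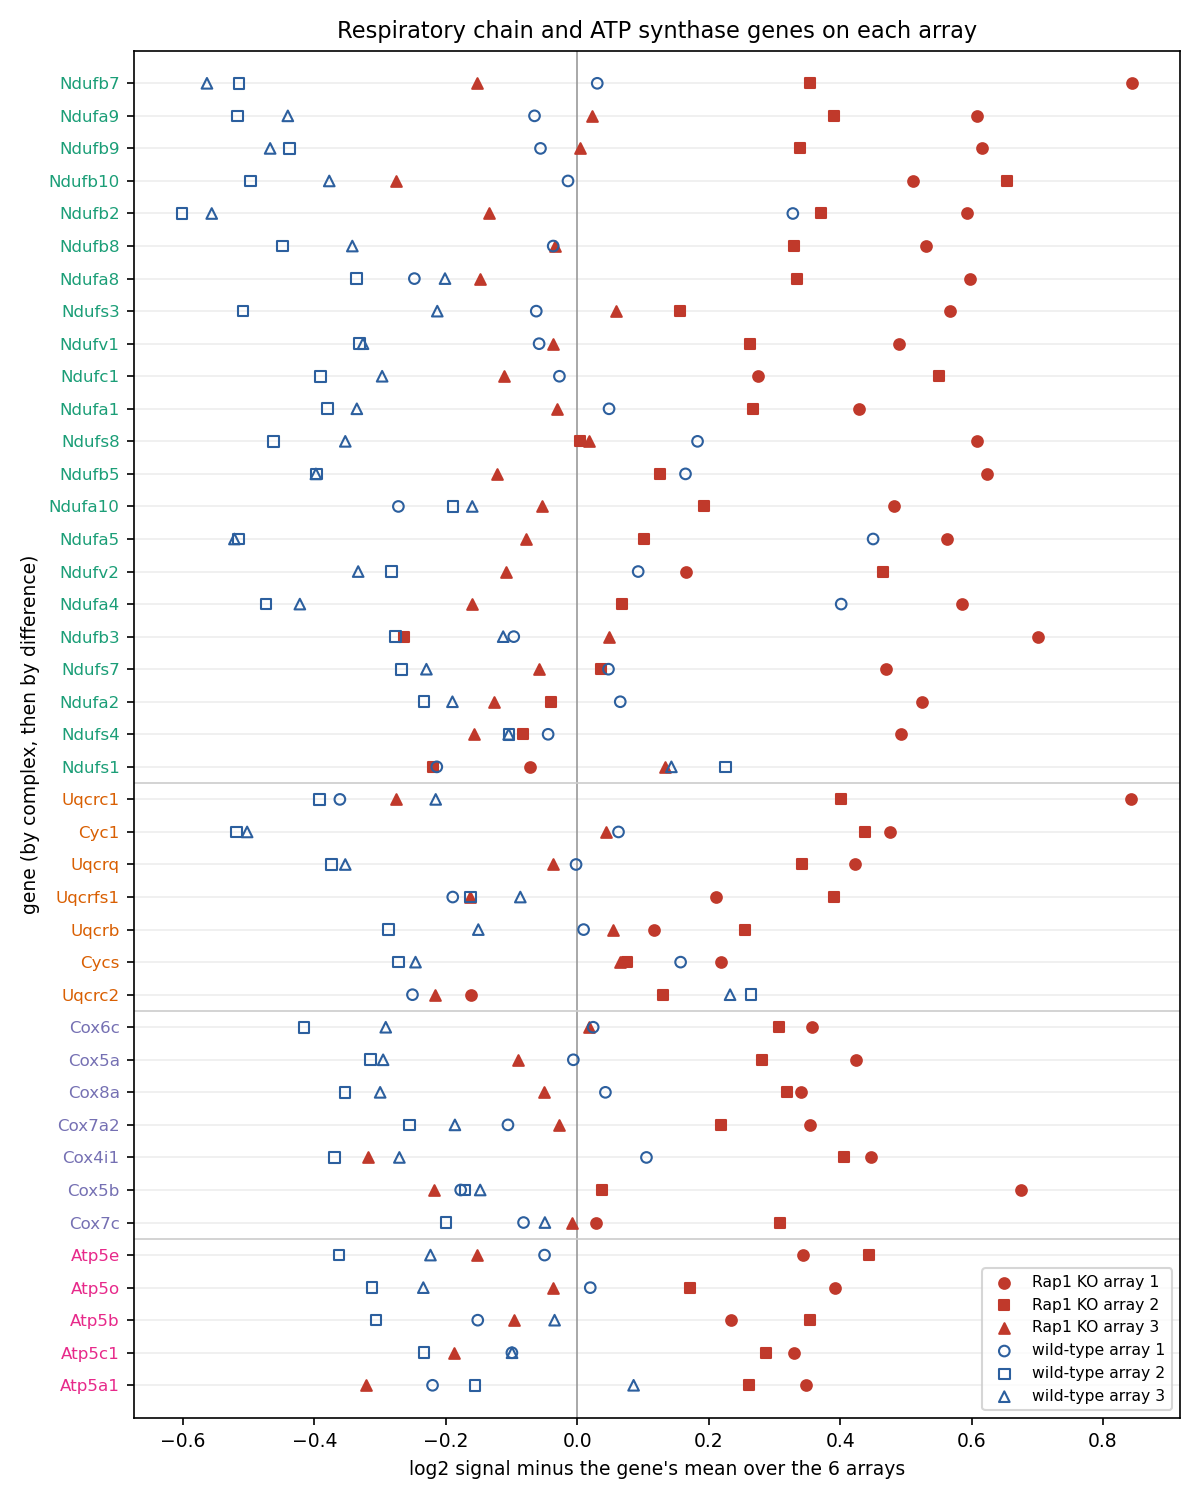
Each gene's log2 signal on each of the 6 arrays is plotted as its distance from the gene's own mean, with filled symbols for Rap1 knockout and open symbols for wild-type arrays. Knockout array 1 lies farthest right in 31 of 41 genes and wild-type array 2 farthest left in 29.

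Complex III passes electrons from ubiquinol to cytochrome c, and its 6 genes with Cycs had a median difference of 0.29, with 6 of 7 above 0. In 1 of the 7 the groups were separated with knockout higher, against 11.3% of all features. Uqcrc1, one of the large core proteins that face the matrix, read 5.83, 5.39 and 4.72 in knockout cells, against 4.63, 4.60 and 4.78 in wild-type cells. Knockout arrays 1 and 2 stood above the wild-type range and knockout array 3 within it. The difference of 0.65 ± 0.32 was 1.20 on slide 1 and 0.37 on slide 2. Without knockout array 1 it was 0.39. Cyc1, cytochrome c1, which carries the heme that reduces cytochrome c, read 5.70, 5.66 and 5.27 in knockout cells, against 5.29, 4.71 and 4.72 in wild-type cells. Its groups overlapped by 0.02, and its difference was 0.64 ± 0.27.

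Uqcrb, a small subunit needed for assembly of the complex, read 3.71, 3.84 and 3.64 in knockout cells, against 3.60, 3.30 and 3.44 in wild-type cells. It was the 1 gene of complex III with separated groups, at a difference of 0.28 ± 0.21. Uqcrc2, the partner of Uqcrc1 in the complex, read 4.08, 4.37 and 4.02 in knockout cells, against 3.99, 4.50 and 4.47 in wild-type cells. It had the lowest difference of the 41 genes, −0.16 ± 0.25, and it was 0.09 on slide 1 alone. With 1 array left out it was −0.33 to −0.07, lowest without wild-type array 1 and nearest 0 without wild-type array 2. The core proteins Uqcrc1 and Uqcrc2 thus had differences of opposite sign, neither past the test, and the difference between them was not tested. Uqcrfs1, the Rieske iron-sulfur protein, and Uqcrq differed by 0.29 and 0.49. The 3 probes of Cycs, cytochrome c, did not share a sign: the brightest gave 0.24, and the others −0.01 and −0.08. For the other 6 genes with over 1 probe, the differences of the probes lay within 0.13 of each other.

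Complex IV, cytochrome c oxidase, had a median difference of 0.36 over 7 nuclear genes, all 7 above 0. In 2 of the 7 the groups were separated with knockout higher, against 11.3% of all features. Cox6c, a small membrane subunit, had the highest, 0.46 ± 0.24, and read 6.22, 6.17 and 5.88 in knockout cells, against 5.89, 5.45 and 5.57 in wild-type cells. Knockout array 3 and wild-type array 1 stood 0.0058 apart in the order that makes the groups overlap. Cox7a2, the form of its subunit found across tissues, read 5.72, 5.59 and 5.34 in knockout cells, against 5.26, 5.11 and 5.18 in wild-type cells (0.36 ± 0.22). Cox7c read 2.51, 2.79 and 2.47 in knockout cells, against 2.40, 2.28 and 2.43 in wild-type cells, and had the smallest difference of the complex, 0.22 ± 0.21, which was 0.12 without knockout array 2. Cox7a2 and Cox7c were the genes with separated groups. Cox4i1, whose product binds adenine nucleotides, Cox5a, Cox5b and Cox8a differed by 0.33 to 0.41, and their groups overlapped.

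In ATP synthase, the median over 5 genes was 0.33, all 5 above 0. Separated groups were found in 0 of the 5, against 11.3% of all features with knockout higher. Atp5e, the epsilon subunit of the rotor stalk, had the highest difference, 0.42 ± 0.25, and read 6.06, 6.17 and 5.57 in knockout cells, against 5.67, 5.36 and 5.50 in wild-type cells. Atp5a1, the alpha subunit of the catalytic head, had the lowest, 0.19 ± 0.26, which was −0.0042 after quantile normalisation, 0.067 when knockout array 1 was left out, 0.11 when array 2 was and 0.40 when array 3 was. It read 6.64, 6.55 and 5.97 in knockout cells, against 6.07, 6.13 and 6.37 in wild-type cells, so that knockout array 3 was the lowest of the 6. The catalytic beta subunit Atp5b, the gamma subunit Atp5c1 of the central stalk and Atp5o, which joins the head to the peripheral stalk, differed by 0.29 to 0.35.

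Most genes shared an order of arrays that crossed the groups. The median distance from each gene's own mean over the 6 arrays was 0.47, 0.28 and −0.08 on knockout arrays 1, 2 and 3, and −0.03, −0.34 and −0.25 on wild-type arrays 1, 2 and 3. Knockout array 3 and wild-type array 1 were therefore close together: their median difference was −0.06, and knockout array 3 was the lower in 25 of 41 genes. Knockout arrays 1 and 2 both lay above all wild-type arrays in 30 genes, and wild-type array 1 lay above wild-type arrays 2 and 3 in 30 genes. Knockout array 1 was above wild-type array 1, its neighbour on the slide, in 41 of 41 genes, against 57.9% of all features. Of the 31 genes whose groups overlapped, 13 did so only through knockout array 3 and wild-type array 1. Without knockout array 3, 30 genes had separated groups, all higher, against 26.3% of all features, and 15 had an unadjusted p under 0.05, against 19.7%. Without wild-type array 1 the count was 32, 30 higher and 2 lower, against 26.3% of features higher, and 6 had an unadjusted p under 0.05, against 18% of features. With the slide as a block, 7 genes did, against 17.7%. No gene passed the adjusted threshold in these 3 fits (limma), and the median was 0.24 when knockout arrays were set against wild-type array 1 alone. Without knockout array 1 or 2, 0 of 41 genes had an unadjusted p under 0.05 (limma), against 8.24% and 10.1% of features. Without wild-type array 2 or 3, or with their mean as 1 sample, the count was also 0 of 41, against 3.56%, 3.54% and 3.52%. The spread within groups was below that of all features: the median SD within knockout was 0.29 for the 41 genes and 0.43 over all features, and within wild type 0.21 and 0.25. All features include many dim ones, and the spread of features as bright as these genes was not computed.

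**Figure D3:**
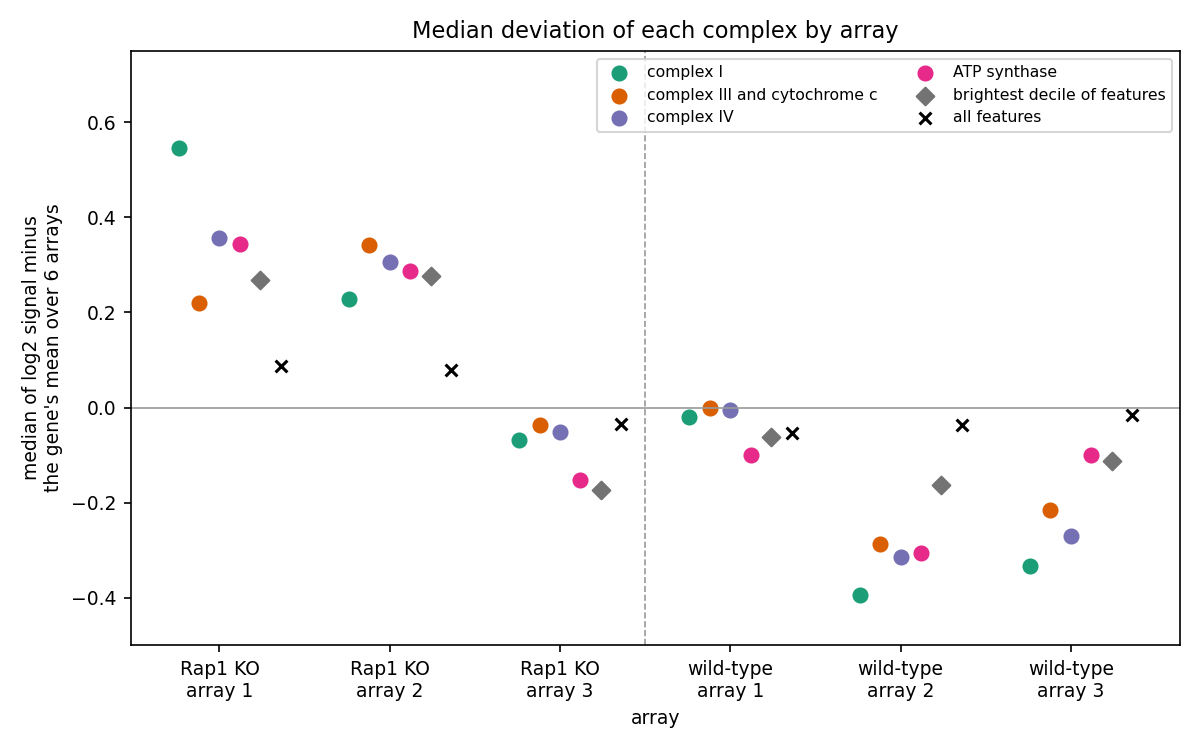
For each array, the median distance of the genes from their own mean over 6 arrays (log2) is plotted by complex, beside all features and the brightest decile of features, with Rap1 knockout arrays left of wild-type arrays. All 4 complexes lie above 0 on knockout arrays 1 and 2 and below 0 on knockout array 3 and on every wild-type array.

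The genes are bright, and bright features as a class lay on the same side. Ranked by mean signal in 10 deciles, 36 of the 41 genes were in the brightest decile, 4 in decile 9 and 1 in decile 8. The median difference over all features was −0.07 in the dimmest decile and 0.22 in the brightest, where 73.9% of features were above 0 and 14.2% had separated groups with knockout higher. The brightest decile also followed the arrays, with median distances of 0.27, 0.28 and −0.17 on the knockout arrays and −0.06, −0.16 and −0.11 on the wild-type arrays. Of the 41 genes, 37 lay above the median of their own decile. Their median stood 0.19 above that of the brightest decile. The part of the signal level in the difference was not tested.

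**Figure D4:**
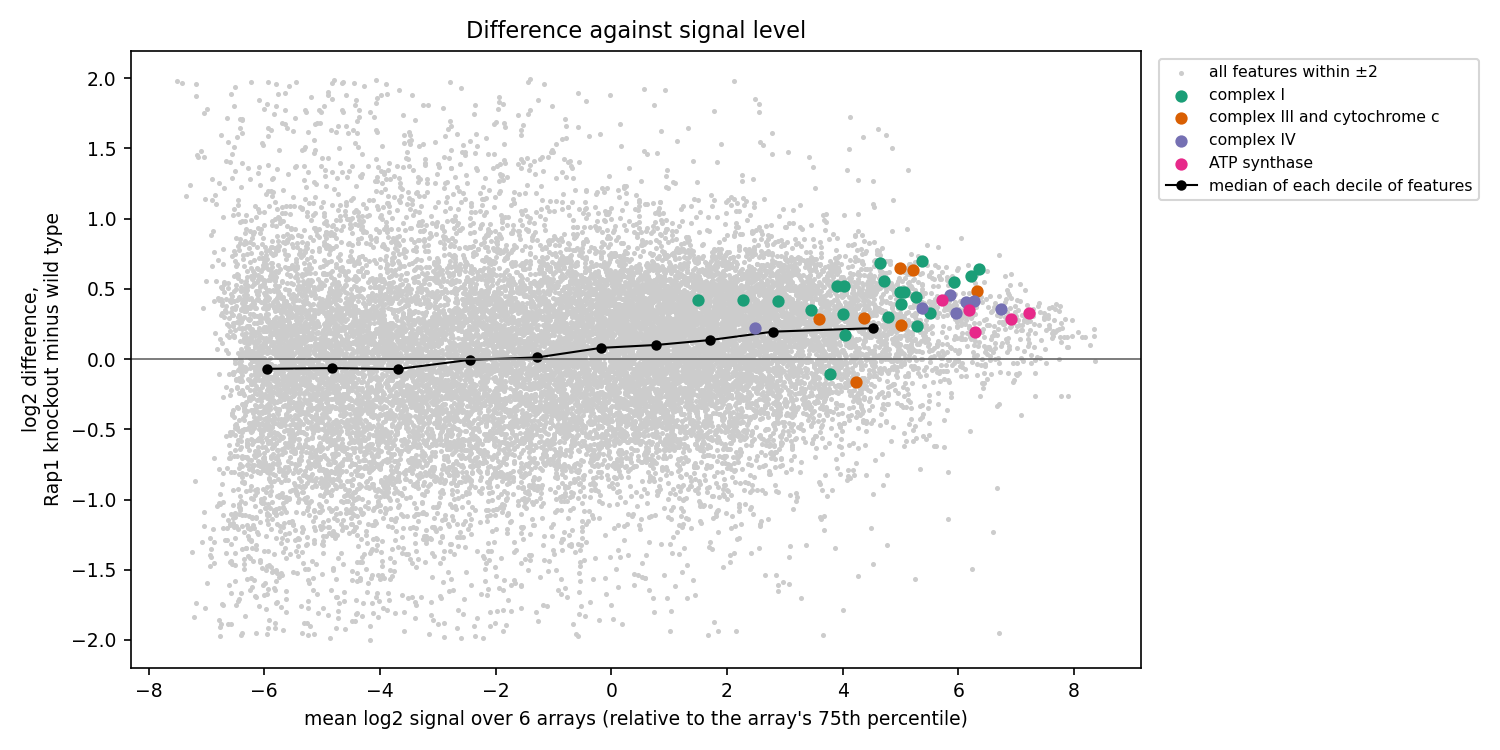
Log2 difference, Rap1 knockout minus wild type, is plotted against mean log2 signal over 6 arrays for features within 2 log2 units of 0 (475 beyond are not drawn), with the 41 genes coloured by complex and the median of each decile of features as a line. The line runs from −0.07 to 0.22, and 37 of the 41 genes lie above the value of their decile.

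Other genes of the system were counted from lists. Among 30 further nuclear subunit genes tested of 32, 28 had a difference above 0 with a median of 0.28, and 0 passed the test, 0 had an unadjusted p under 0.05 and 0 had separated groups. Atp5h, a peripheral stalk subunit of ATP synthase, differed by 0.57 ± 0.28, and Ndufb11, a membrane-arm subunit of complex I, by 0.67 ± 0.34. All 4 genes of complex II were above 0 with a median of 0.31 and 0 past the test. Among them were Sdhd, an anchor subunit, at 0.33 ± 0.22, and Sdha, the flavoprotein, at 0.29 ± 0.20. These 2 of the 4 had separated groups with knockout higher, against 11.3% of all features. Assembly factors with the ATP synthase inhibitor (35 tested of 39) gave 25 above 0, a median of 0.25, 4 with separated groups, all higher, against 11.3% of all features, and 0 past the test. In the same list of 35, 3 genes had an unadjusted p under 0.05, against 10.3% of all features, among them Taco1, a translational activator of Cox1, at 0.57 ± 0.22, and Cox10, which makes the heme o precursor of heme a, at 0.61 ± 0.25.

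Regulators of mitochondrial biogenesis (16 tested of 17) were spread around 0, with 9 above it, a median of 0.01, 5 with separated groups, all higher, against 11.3% of all features, and 0 past the test. The nuclear receptor Esrra, which binds the ERR motif, differed by 0.56 ± 0.24 and the mitochondrial DNA polymerase gene Polg by 0.39 ± 0.22. Of the other factors whose motifs were searched, chosen after their values were seen, Nrf1 differed by 0.34 ± 0.22, Gabpa by −0.81 ± 0.47 and Yy1 by −0.26 ± 0.23. Gabpa read −0.01, 0.26 and 1.65 in knockout cells, against 1.08, 1.64 and 1.62 in wild-type cells, so the groups overlapped. The other GABP gene of the list, Gabpb1, had the opposite sign, 0.31 ± 0.21, with separated groups. Ppargc1a, a coactivator of those factors also chosen after its values were seen, read −5.07, −3.69 and −1.99 in knockout cells, against 0.26, −4.12 and −4.23 in wild-type cells. Wild-type array 1 stood far above the other 5 arrays for it.

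**Figure D5:**
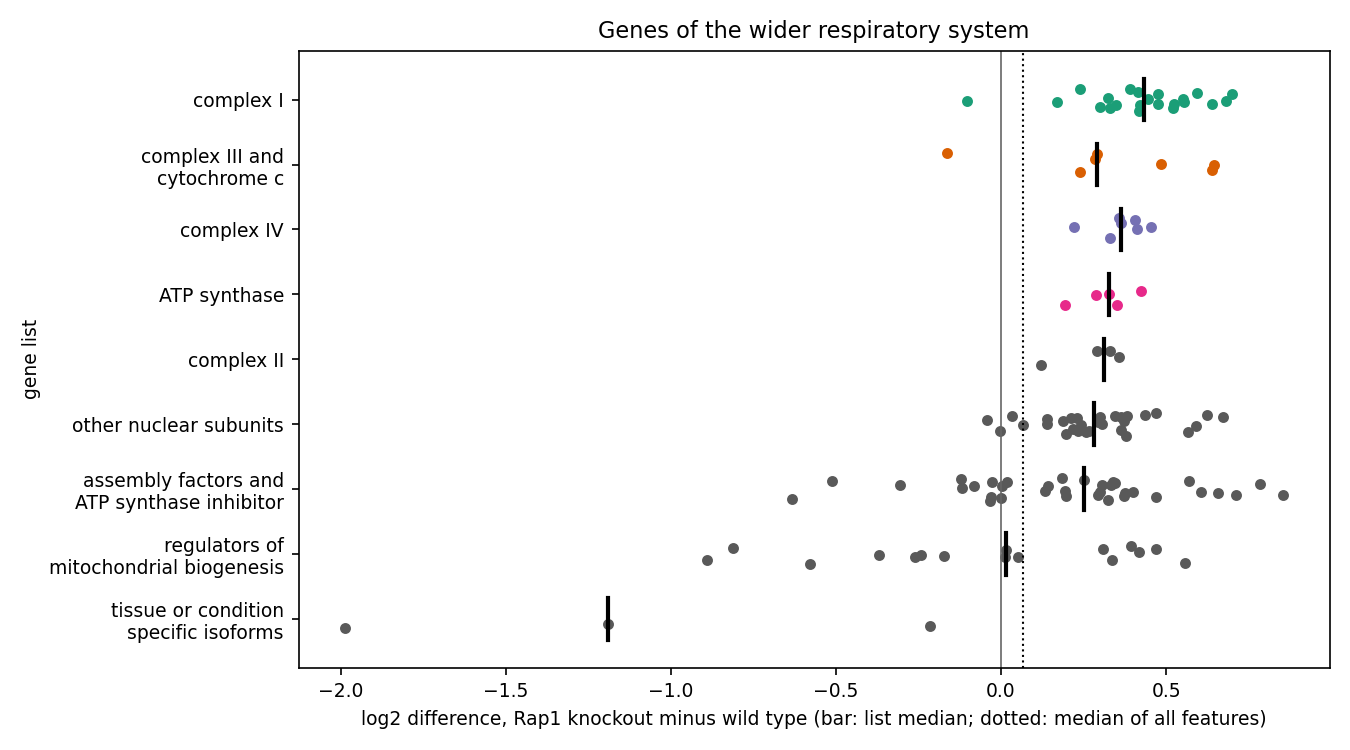
Log2 differences, Rap1 knockout minus wild type, are plotted for each gene of 9 lists, with the list median as a bar and the median of all features as a dotted line. The medians of the subunit lists lie between 0.28 and 0.43, that of the regulators at 0.01 and that of the isoforms at −1.19.

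Tissue- or condition-specific isoforms replace common subunits in some cells. Of 8 such genes 3 were tested, all below 0 with a median of −1.19 and 0 past the test. Cox6a2, the heart and skeletal muscle form, read −5.22, −4.03 and −1.53 in knockout cells, against 0.93, −2.31 and −3.43 in wild-type cells, a difference of −1.99 ± 1.33. Cox7a1, also a muscle form, read −1.69, −0.47 and 1.06 in knockout cells, against −0.55, 1.37 and 1.65 in wild-type cells, a difference of −1.19 ± 0.84. The arrays within each group were far apart in both genes. Cox4i2 was well above background on 1 array, and Cox8b, Cox8c and Cyct on 0. Summed signal of 6 muscle markers was 1.17 to 2.23 in knockout samples and 1.63 to 9.38 in wild-type samples, with the highest value on wild-type array 1. Cox6a2 was also highest on that array, and Cox7a1 was highest on wild-type array 3. The 2 muscle markers well above background on all 6 arrays, Actc1 and Tnnt2, read 2.85 and 1.13 on wild-type array 1. On the other arrays Actc1 read −0.0042 to 1.14 and Tnnt2 −6.62 to −2.66. Myod1, Myog, Ckm and Myh6 were not well above background on any array. The part of muscle transcripts in the isoform values was not tested.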

How the data were processed

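Total RNA of Rap1 knockout and wild-type mouse embryonic fibroblasts (3 arrays each) was hybridised to one-colour Agilent arrays. Spot intensity in the deposited scanner files came from Agilent Feature Extraction 10.5.1.1, which had subtracted background and removed spatial trends, per the file headers. The deposited value table holds log2 values, made by the authors with a pipeline in which the submitters' processing notes name limma. Its knockout columns 1, 2 and 3 matched scanner files 2, 3 and 1 of that group (r = 0.99999), so array numbers here are those of the scanner files. Scale and centring of that table are those of normexp-corrected, quantile-normalised signal, with column medians of 6.86 to 6.87, and the labels do not say which steps made it.

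Control spots and outlier spots were left out, and 0 probes were saturated. Spots of a probe were averaged. Values were log2 processed signal minus the array's 75th percentile. Probes entered if every array of knockout or every array of wild type was well above background (25513 of 41174), and a gene was read by its brightest probe. RefSeq accessions named 23366 probes through a gene table of GRCm38.p6. The files name build mm8, so coordinates are only those of the promoter table. Knockout and wild type were compared with limma 3.58.1 in R 4.3.3 (lmFit, eBayes, 2-sided, Benjamini-Hochberg 0.05 over 19652 features, no block), after a trial on simulated data. The bound for Terf2ip used, on each knockout array, the dimmest signal of any probe well above background or the signal of Terf2ip itself, whichever was higher, and the wild-type mean.

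The genes and lists were chosen with earlier results of these data known. Values on every array are given for each gene past the threshold, in each complex the highest, the lowest and that of smallest p, and up to 12 genes with separated groups. Every other list is given by its counts and by the differences of its 2 genes of smallest p. Under the numbers of the scanner files no pairing by replicate was seen: same-numbered arrays' deviations from their group mean correlated at 0.01, 0.05 and −0.08. Wild-type arrays 2 and 3 are nearly alike, so their deviations are too, and this check could show little about pairing of replicates 2 and 3. Pairing under the order of the value table's knockout columns was not tested. Alternatives were another normalisation, scaling, filter, probe rule or variance model, the value table, a block for replicate or slide, each slide alone, wild-type arrays 2 and 3 averaged and each array left out. Knockout against wild-type array 1 alone and subtraction of the brightest decile's median were added after seeing the data.

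Of the other marker lists, neural markers summed to 5.77 to 17.6 in knockout samples and 11.5 to 12.5 in wild-type samples, blood and macrophage markers to 0.58 to 1.38 and 1.09 to 1.66, and endothelial markers to 0.03 to 0.23 and 0.05 to 0.22. Adipoq, Ptprc, Adgre1, Itgam, Pecam1, Cdh5 and Tie1 were not well above background on any array.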

Additional observations from a re-analysis of the deposited data

How the results depend on the processing

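No subunit gene passed the adjusted threshold in any setting with a test (0 in every one), and the median of the 41 genes stayed above 0 in all 20 settings and that of each complex in the 18 in which it was computed. The filter, variance-model and block settings among these left every subunit difference as it was, so they could not move the medians. The median of the 41 was 0.19 to 0.53 over all settings and 0.29 to 0.53 with 1 array left out. The count of subunit genes with separated groups, 10, all higher, against 11.3% of all features, was 6 in the deposited value table (11.0% of features) and 32 on slide 2 alone, 30 higher and 2 lower (31.99% of features higher). With 1 array left out it was 10 to 32, against 12.2% to 26.3% of features with knockout higher. The count of features passing limma's adjusted threshold, 2, was 0 with probes above background on all arrays (1780 at an unadjusted p under 0.05), 0 with the slide as a block (3482), 0 with wild-type arrays 2 and 3 averaged (691), 4 with the mean of a gene's probes and 303 on slide 2 alone. With 1 array left out it was 0 to 64, with 64 in the absence of wild-type array 1 and 0 in the absence of knockout array 1 or of wild-type array 2 or 3 (1619, 699 and 696 at an unadjusted p under 0.05).

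The replicate block, which pairs same-numbered arrays, each pair on the same slide, left 0 features past the adjusted threshold (2353 at an unadjusted p under 0.05). With it, Terf2ip kept its difference of −6.63 at a limma adjusted p of 0.177. Terf2ip also missed the threshold with the slide as a block (−6.63, adjusted p = 0.0625) and with wild-type arrays 2 and 3 averaged (−6.62, adjusted p = 0.065), and its difference was −6.85 to −6.27 with 1 array left out. Signs turned for Atp5a1 after normexp and quantile normalisation (−0.0042), for Ndufs1 with array-median scaling (0.0017) and on slide 1 alone (0.14), and for Uqcrc2 on slide 1 alone (0.089). The cause of these changes was not tested. Against wild-type array 1 alone, Ndufa4, Ndufa5, Ndufb2 and Cycs were the 4 of 41 genes below 0, so that Ndufs1 and Uqcrc2 turned there too. The 3 arrays a group, of which wild-type arrays 2 and 3 are nearly alike, and signal over background limit what these data can show.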
